A study of Homo sapiens with 10 samples.

Results

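The 10 genes described here encode amino acid transporters of the plasma membrane: SLC7A1, SLC7A5, SLC7A6, SLC7A11, SLC3A2, SLC1A4, SLC1A5, SLC38A1, SLC38A2 and SLC6A9. They were chosen by symbol, with earlier results of these data known. All 10 were found among the 11258 transcripts that both the RNA-Seq and the Ribo-Seq table list. BJ cells are human fibroblasts immortalised by expression of telomerase (hTERT). They were either left untreated (control) or kept on nutlin-3a for 2, 4, 6 or 19 h. Nutlin-3a occupies the pocket by which MDM2 holds p53, so that p53 is no longer marked for degradation. Polyadenylated RNA was sequenced for transcript level, and fragments protected by ribosomes after arrest with cycloheximide were sequenced for ribosome density. Each of the 10 groups, 5 times in 2 assays, holds 1 library of 1 cell line. No difference below therefore has a replicate check and no p-value was computed. The study's methods describe nutlin-3a treatment for 6 and 19 h. The 2 h and 4 h libraries are known here from their labels alone.

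Amino acids are charged or polar and cross membranes through carriers. Some carriers are single proteins that bring in amino acids with sodium, and others are exchangers that let in 1 amino acid as another leaves. The heteromeric exchangers pair a glycoprotein heavy chain, which carries the complex to the surface, with a light chain that does the transport. Leucine brought in this way is a signal to mTORC1, the kinase complex that sets the rate of protein synthesis and cell growth. When amino acids run short or the endoplasmic reticulum is stressed, translation of the transcription factor ATF4 goes up, and many of these carriers are known ATF4 targets. The cystine carrier is also known as a target of the oxidative-stress factor NRF2 and, in other settings, as a gene that p53 represses.

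Levels are FPKM, read fragments scaled to transcript length and library total. The Ribo-Seq FPKM is called ribosome density. Dividing it by the RNA-Seq FPKM and taking log2 gives translational efficiency (TE). Values below 1 FPKM were raised to 1, and changes are log2 ratios of a treated library to its own assay's control. Genes that reached 5 FPKM in both assays, in any library, were tested, which left 7015. A change was called when it was past 1.75 times the SD of the change among the 200 tested genes nearest in level, the kind of sliding limit that the study used. Of the 10 transporters 9 were tested. SLC7A6 peaked at 3.95 FPKM in Ribo-Seq and stayed below the filter, so its values are given without a call. Errors are counting SEs. They rest on read numbers worked back from the steps between FPKM values, and they say nothing of variation between cultures. The library totals estimated in this way ran from 23845561 to 27554293 reads in RNA-Seq and from 7744899 to 14460726 reads in Ribo-Seq.

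The Ribo-Seq values of all 10 transporters were scaled to the length of the whole transcript. If only coding-sequence reads were counted, a gene with long untranslated ends is thus placed too low in density and TE beside other genes. Its change over time is then not touched. Whether reads outside the coding sequence were counted could not be decided, and if they were, neither statement need hold. The library of 19 h was the shallowest in Ribo-Seq. In bulk samples, fewer cells of a type and less RNA per cell cannot be told apart. The fibroblast label matched the markers: 12 of 12 fibroblast markers were above 1 FPKM in the RNA-Seq control. Of 7 epithelial markers 2 were, KRT18 and KRT8, and none of the 4 endothelial or 5 leukocyte markers was. The p53 target CDKN1A, an inhibitor of cell-cycle kinases, had 68.6 FPKM in RNA without treatment and 1316 at 19 h, and MDM2 had 14.9 and 259. All treated libraries are compared with the same control library, so their changes share its errors. Which libraries shared a sequencing run was not used here, and run and time cannot be told apart.

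The promoters of the transporters were searched for 2 short motifs, shown here because their factors are those named above. The first, TGATGNAA, is the core of the C/EBP-ATF response element that ATF4 binds. The second, TGACNNNGC, is the core of the antioxidant response element that NRF2 binds. RefSeq promoters of build GRCh38.p14, 250 bases before to 50 after a start site, were given for 9 of the 10 genes, with 15 start sites in all. Both strands were searched, and no matches of the motifs overlapped. The first motif was found in 5 of the 15 promoters and in 3.62% of all 35116 promoters. The second was found in 5 of the 15 and in 13.3% of all. The windows below hold the matches to the first motif, with the match in capitals, on the strand of the gene.
SLC7A1, chr13:29595663-29595692, minus strand: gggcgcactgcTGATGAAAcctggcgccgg
SLC3A2, chr11:62881719-62881748, plus strand: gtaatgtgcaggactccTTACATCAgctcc
SLC1A4, chr2:64989381-64989410, plus strand: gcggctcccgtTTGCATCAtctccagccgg
SLC1A5, chr19:46784893-46784922, minus strand: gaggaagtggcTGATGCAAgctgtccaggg
SLC38A1, chr12:46266502-46266531, minus strand: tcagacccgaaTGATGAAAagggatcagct

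The match in SLC3A2 began 37 bases after its start site and that in SLC7A1 began 7 bases after. The matches began 7 bases before the start in SLC1A4, 4 before in SLC38A1 and 97 before in SLC1A5. In SLC1A4 and SLC3A2 the motif read on the opposite strand. The matches to the second motif are listed in the same way.
SLC3A2, chr11:62881652-62881681, plus strand: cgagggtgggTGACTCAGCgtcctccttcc
SLC7A1, chr13:29595754-29595783, minus strand: tgcccggcggTGACGCGGCcgagcgggccg
SLC7A5, chr16:87869490-87869519, minus strand: gcggggttccTGACGCAGCtgcgggcggcg
SLC7A6, chr16:68264319-68264348, plus strand: gctcgagcccTGACGAGGCagctgggggct
SLC7A6, chr16:68264487-68264516, plus strand: cggcggcgggTGACGTGGCggggcggggcc
SLC1A5, chr19:46787385-46787414, minus strand: cctggatcttGCGAGGTCAgctcccgctcc

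SLC6A9 and SLC38A2 held neither motif in their windows, SLC3A2 and SLC7A1 held both in 1 promoter, and SLC1A5 held them at separate start sites. SLC7A11 is named only. A match is a stretch of letters in the genome and was not measured here as a bound site.

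The most evident pattern was in RNA at 4 h, where 8 of the 9 tested transporters were called higher and none lower. Of all 7015 tested genes, 3.66% were called higher and 3.36% lower at that time. Because the 10 genes were chosen with earlier results of these data known, this comparison is descriptive only. With changes centred on the median of all tested genes the members' count was still 8, and 4.53% of all genes were called higher and 2.39% lower. The count fell to 5 of 9 with the 2 h library as baseline, against 2.71% of genes higher, and to 3 with a fixed 2-fold limit, against 1.41%. The median change of the 10 transporters was 0.68 against -0.07 over all tested genes, and all 10 values were above 0. The exception among the tested was SLC38A2, at 0.06 ± 0.01 (SE).

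**Figure D1:**
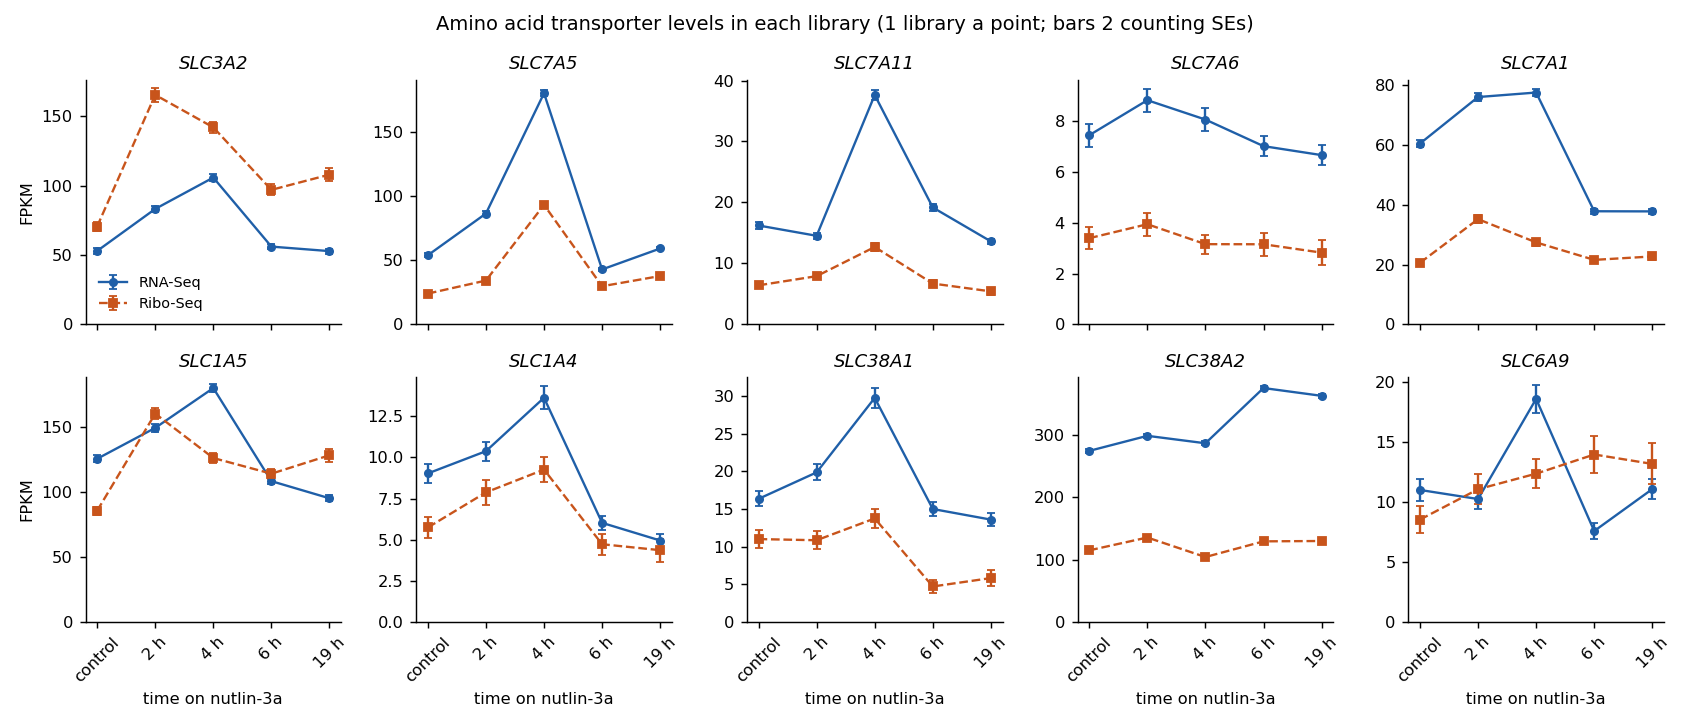
FPKM of each transporter in each library, against time on nutlin-3a (0 is the control), with RNA-Seq in blue circles and Ribo-Seq in orange squares and bars of 2 counting SEs. SLC7A5, SLC7A11, SLC38A1, SLC6A9 and SLC1A4 have their highest RNA value at 4 h and lie far lower at 6 h, whereas SLC38A2 is highest at 6 h with 375 FPKM.

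At 2 h the RNA count was smaller. SLC7A5 and SLC3A2 were called higher, 2 of 9, against 3.52% of all tested genes, and none was called lower against 0.998%. The median change was 0.25 against -0.05. Centring on the median of all genes added SLC7A1 and SLC1A5, making 4 called, against 4.22% of genes higher and 0.542% lower.

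By 6 h the RNA pattern was gone. No transporter was called higher or lower, against 1.72% and 4.70% of all genes, and the median was -0.17 against 0.00. At 19 h again none was called in either direction, against 1.67% higher and 5.02% lower, with a median of -0.21 against -0.07. The call limits were wider at the late times because the genes spread further: the SD over all tested genes was 0.24, 0.36, 0.64 and 0.83 at 2, 4, 6 and 19 h. A change of 0.36 in SLC7A1 was thus called at 4 h, and a change of -0.68 in the same gene was not called at 6 h.

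Between 4 h and 6 h, RNA of 9 of the 10 transporters went down by more than 2 counting SEs, and SLC38A2 went up. The median step of the transporters was -0.98. Over all tested genes the median step was 0.05, and 44.4% of them went down. The largest step was in SLC7A5, -2.08 ± 0.02, followed by SLC6A9 at -1.296 ± 0.08 and SLC1A4 at -1.18 ± 0.06. This step compares the treated libraries directly and does not involve the control. It rests on the same single 4 h RNA library as the calls at 4 h, so it is no separate check of them.

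Ribosome density showed the members' peak less evenly. At 2 h SLC3A2, SLC1A5 and SLC7A1 were called higher, 3 of 9, against 4.92% of all tested genes, and none lower against 1.54%. At 4 h SLC7A5 and SLC3A2 were called higher, 2 of 9, against 6.46%, and none lower against 1.31%. Centred on the all-gene median of 0.10, the 4 h shares of all genes were 4.42% and 2.34%, and the members called stayed 2. The median change of density among the transporters was 0.42 at 2 h and 0.55 at 4 h, against 0.02 and 0.10 over all genes.

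No transporter was called in density at 6 h, against 2.57% of genes higher and 4.42% lower, or at 19 h, against 1.92% and 5.45%. The medians were 0.12 and 0.16, against -0.02 and -0.19 over all genes. With centring, 2.79% and 4.03% of all genes were called higher and lower at 19 h, and still no member.

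In TE, 1 of 9 transporters (SLC1A5) was called higher at 2 h, against 5.53% of all genes, and none lower against 1.90%. At 4 h none was called in either direction, while 12.2% of all genes were called higher and 0.756% lower, since the median TE of all genes was up by 0.18. The transporters lay below that shift: their median was -0.10, and 9 of 10 were under the all-gene median. The TE change is the density change minus the RNA change, so the higher RNA at 4 h, with any error in that library, lowers it directly. After centring 4.36% of all genes were called higher and 3.34% lower at 4 h, and 1 member, SLC38A1, was called lower.

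At 6 h SLC6A9 was called higher and SLC38A1 lower in TE, 1 of 9 each, against 3.88% and 3.01% of all genes. At 19 h SLC1A5 was called higher, against 2.57%, and none lower against 5.27%. With centring SLC1A5 and 1 more member were called higher at 19 h, and the shares of all genes were 3.41% and 4.12%. The median TE change of the transporters was 0.34 at 6 h and 0.49 at 19 h, against 0.00 and -0.07 over all genes. TE changes carry the counting errors of 4 libraries and of both scalings.

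**Figure D2:**
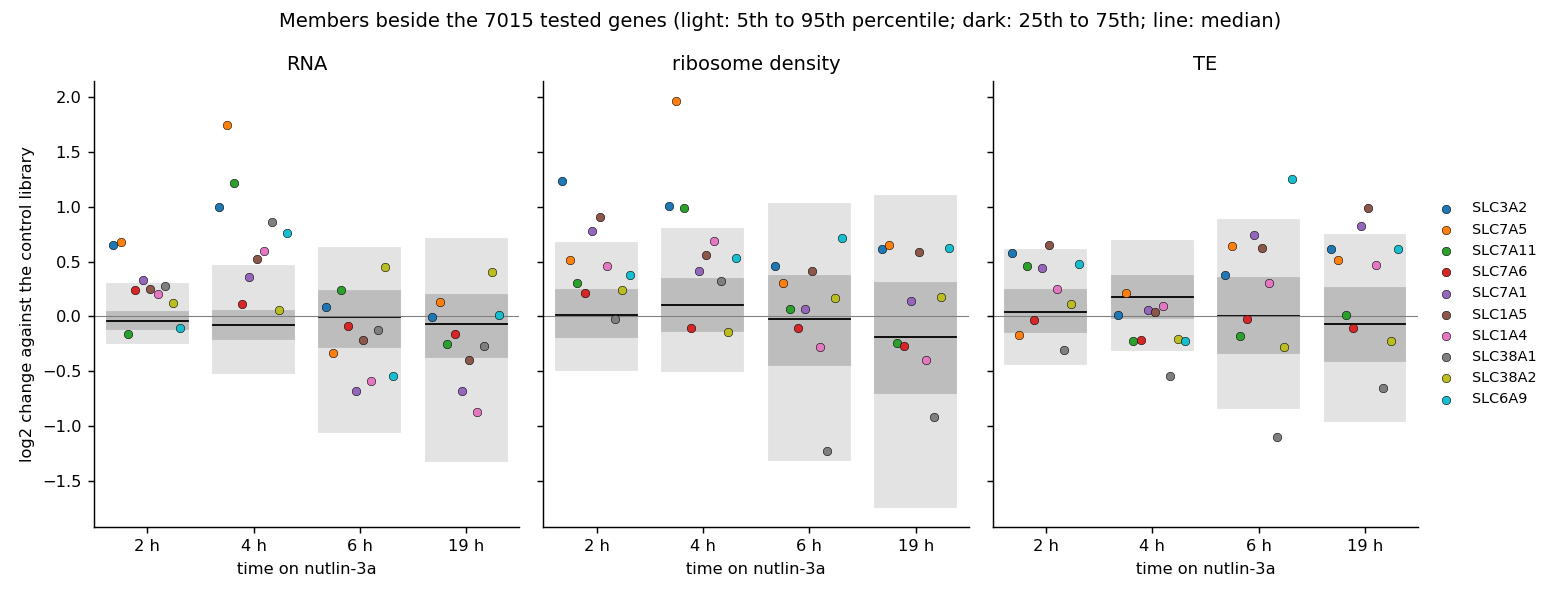
Log2 change of RNA, ribosome density and TE against the control library at each time, with the 10 transporters as coloured points beside all 7015 tested genes (light band from the 5th to the 95th percentile, dark band from the 25th to the 75th, line at the median). In RNA at 4 h all 10 members sit above the dark band, SLC38A2 and SLC7A6 closest to it, and at 6 and 19 h they lie on both sides of the line.

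SLC3A2, the CD98 heavy chain, takes its partners to the cell surface and does not itself transport. Its RNA was 52.9, 83.2, 105.8, 56.0 and 52.7 FPKM from the control through 2, 4, 6 and 19 h. Ribosome density was 70.5, 165, 142, 96.9 and 108 FPKM in the same order. RNA was thus up at 2 and 4 h and back at the control level later, while density was highest at 2 h and above the control in all 4 treated libraries.

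Its RNA changes were 0.65 ± 0.03 at 2 h and 1.00 ± 0.03 at 4 h, both called, and 0.08 ± 0.04 and 0.00 ± 0.04 at 6 and 19 h. Density changed by 1.23 ± 0.04 and 1.01 ± 0.04 at 2 and 4 h, both called, and by 0.46 ± 0.04 and 0.61 ± 0.05 at 6 and 19 h, within limits of 1.09 and 1.52. The density of SLC3A2 therefore rose 2.35-fold at 2 h where its RNA rose 1.57-fold. Its TE change of 0.58 ± 0.05 there missed the limit of 0.60.

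SLC7A5, or LAT1, is the light chain that exchanges leucine and other large neutral amino acids. RNA stood at 53.9, 86.4, 180.4, 42.8 and 59.2 FPKM from the control through 2, 4, 6 and 19 h. Density stood at 24.0, 34.1, 93.2, 29.7 and 37.7 FPKM at the same times. The 4 h library was the highest in both assays, and the RNA value at 6 h was the lowest of the 5.

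The rise at 4 h was 3.35-fold in RNA, a change of 1.74 ± 0.02, and 3.89-fold in density, 1.96 ± 0.04. Both were called, and 99.6% and 99.7% of tested genes had a smaller change. At 2 h the RNA change of 0.68 ± 0.02 was called, and that of density, 0.51 ± 0.05, was not. TE at 4 h differed from the control by 0.22 ± 0.05, near the all-gene median of 0.18, so the larger density came with the larger RNA. At 6 h RNA was at -0.33 ± 0.03, inside the limit of 0.94.

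SLC7A11, or xCT, is the light chain that takes up cystine in exchange for glutamate and so feeds glutathione synthesis. RNA was 16.2, 14.5, 37.6, 19.2 and 13.6 FPKM from the control through 2, 4, 6 and 19 h. Density was 6.39, 7.90, 12.7, 6.68 and 5.40 FPKM. Both assays had their highest library at 4 h. The other 4 ran from 13.6 to 19.2 FPKM in RNA and from 5.40 to 7.90 FPKM in density.

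The RNA change at 4 h was 1.21 ± 0.03, or 2.32-fold, and was called. That of density was 0.99 ± 0.06, or 1.98-fold, just under a limit of 1.098. At 2 h RNA was lower than in the control by a change of -0.16 ± 0.03, where SLC7A5 and SLC3A2 were called higher. At 19 h, RNA stood at -0.25 ± 0.03 and density at -0.24 ± 0.09, neither called. SLC7A11 had the longest recovered transcript of the 10, 9645 nt. Most of it is untranslated, so its density is placed too low beside other genes if only coding-sequence reads were counted.

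SLC7A6, or y+LAT2, is the light chain that exchanges cationic for neutral amino acids. Its RNA was 7.46, 8.84, 8.07, 7.03 and 6.67 FPKM from the control to 19 h, and its density 3.39, 3.95, 3.16, 3.16 and 2.83 FPKM. All changes lay between -0.26 and 0.25 in both assays. SLC7A6 was thus the lowest and the least changed of the 3 light chains among the 10. The counting SE of its density changes was 0.12 to 0.15.

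**Figure D3:**
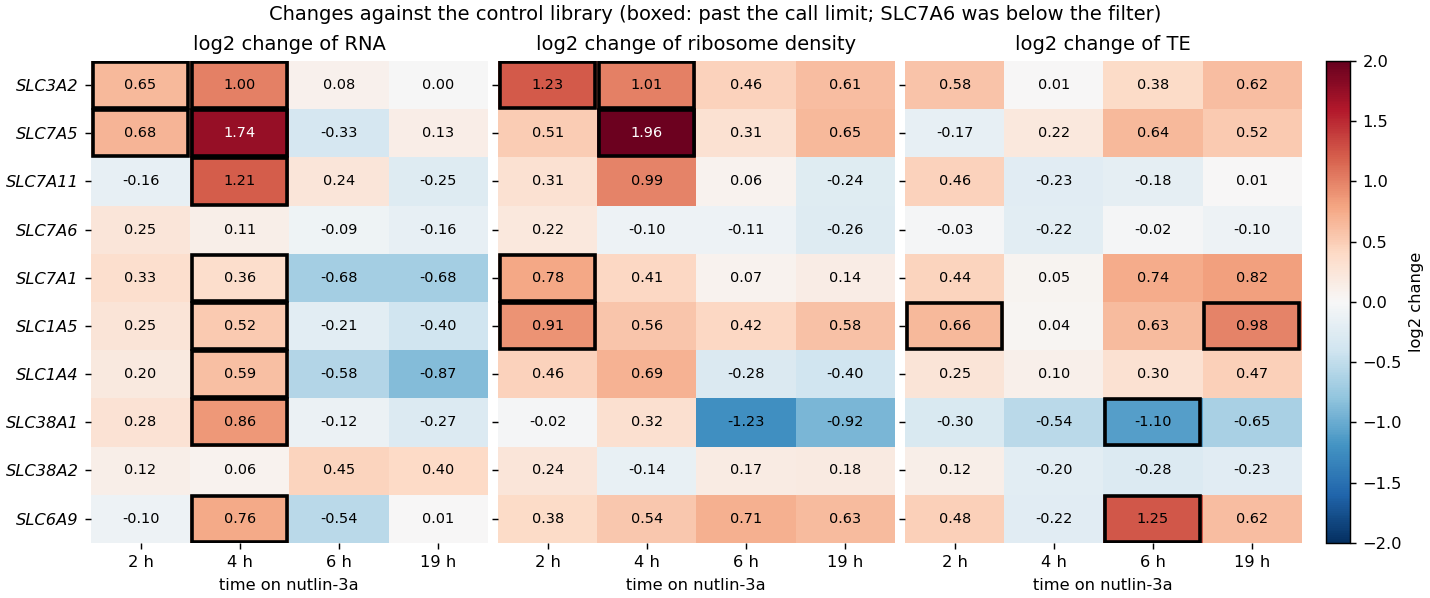
Log2 change of RNA, ribosome density and TE against the control library for the 10 transporters at 2, 4, 6 and 19 h, with calls boxed. Boxes fill the 4 h column of RNA for all but SLC7A6, which was not tested, and SLC38A2, and no box stands at 6 or 19 h in RNA or density.

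Heavy and light chains did not move in step. In RNA the ratio of SLC3A2 to the sum of the listed light chains SLC7A5, SLC7A6, SLC7A7, SLC7A8 and SLC7A11 was 0.662 ± 0.014 (counting SE) in the control. It was 0.741 ± 0.012 at 2 h and 0.459 ± 0.0064 at 4 h. At 6 h it was 0.723 ± 0.014 and at 19 h 0.568 ± 0.011. With SLC7A5, SLC7A6 and SLC7A11 alone as light chains it was 0.682, 0.757, 0.468, 0.811 and 0.664 over the same 5 libraries, so that the low value at 19 h came from counting SLC7A8. At 4 h the light chains summed to 230.5 FPKM, of which SLC7A5 gave 78.2%, against 79.9 FPKM and 67.5% in the control.

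The corresponding ratio in ribosome density was 2.05 ± 0.06 in the control, 3.51 ± 0.08 at 2 h and 1.29 ± 0.02 at 4 h. It was then 2.21 ± 0.07 at 6 h and 2.08 ± 0.07 at 19 h. With the 3 light chains alone the control had 2.09 and the late libraries 2.45 and 2.35. With all listed light chains, the density ratio was thus above its control value at 2 h and below it at 4 h. From the control to 4 h, SLC7A5 density went from 24.0 to 93.2 FPKM, SLC7A11 from 6.39 to 12.7 and SLC7A6 from 3.39 to 3.16. The swing from 2 to 4 h was larger in density than in RNA. The absolute ratios mix transcripts of unequal untranslated length. Their course over time is also weighted by those lengths, because the mix of light chains shifted. In density SLC7A5 gave 69.8% of the light-chain sum in the control and 84.5% at 4 h.

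SLC7A8, or LAT2, is a further light chain for neutral amino acids and no member of the 10. Its RNA was 2.03, 2.22, 4.11, 8.20 and 13.01 FPKM and its density 0.565, 1.18, 1.25, 4.43 and 5.97 FPKM, the highest value of each at 19 h. The RNA change at 19 h was 2.68 ± 0.11 and missed the wide limit of 2.86 for genes of that level. At that time SLC7A5 RNA was at 59.2 FPKM, near its control level. This gene was singled out after its values were seen.

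**Figure D4:**
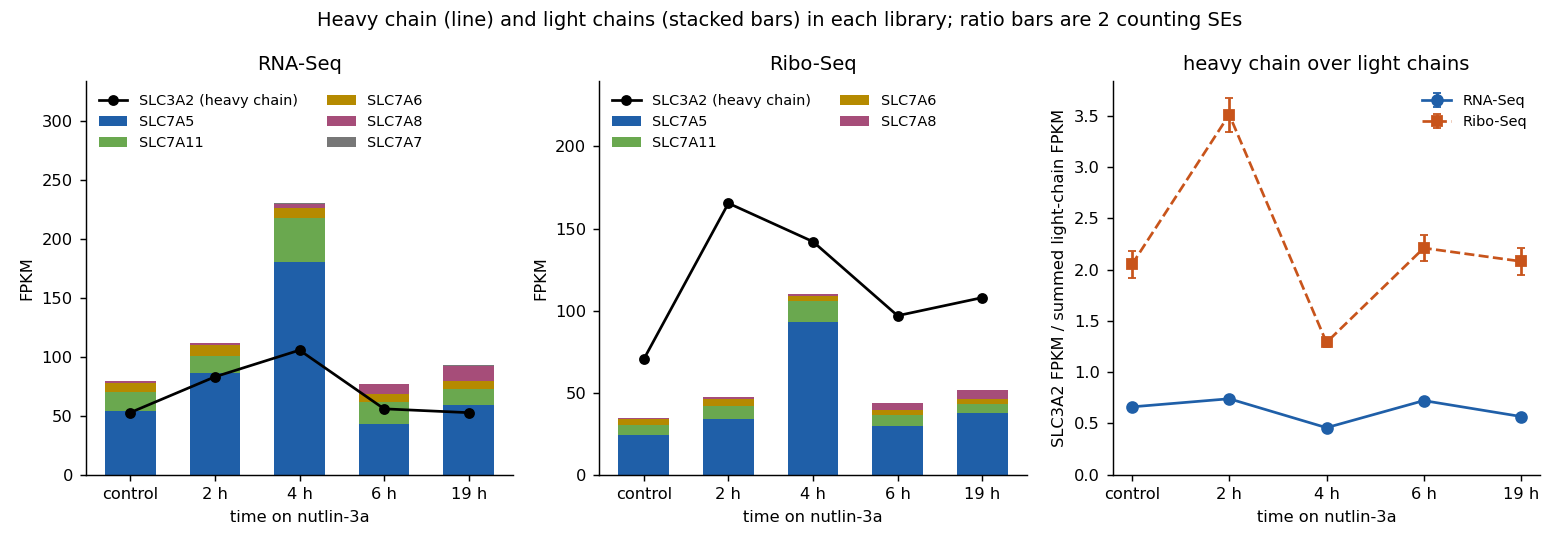
Left and middle, FPKM of the light chains as stacked bars and of the heavy chain SLC3A2 as a black line in RNA-Seq and Ribo-Seq libraries. Right, the ratio of SLC3A2 to the summed light chains, with bars of 2 counting SEs. The density ratio peaks at 3.51 at 2 h and is lowest at 1.29 at 4 h, and the SLC7A8 segment is widest at 19 h.

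SLC7A1, or CAT1, brings in arginine and lysine. RNA was 60.5 FPKM in the control, 76.1 and 77.6 at 2 and 4 h, and 37.8 at both 6 and 19 h. Density was 20.6, 35.2, 27.4, 21.6 and 22.7 FPKM. RNA was thus above the control early and well below it late, and density did not follow it down.

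RNA changed by 0.33 ± 0.02 at 2 h, under a limit of 0.37, and by 0.36 ± 0.02 at 4 h, just past a limit of 0.34. At both 6 and 19 h the change was -0.68 ± 0.02, far beyond counting error but within limits of 0.94 and 1.00. The density change of 0.78 ± 0.04 at 2 h was called, and those at 6 and 19 h were 0.07 ± 0.05 and 0.14 ± 0.05. TE was accordingly higher by 0.74 ± 0.06 at 6 h and 0.82 ± 0.06 at 19 h, both just under limits of 0.83 and 0.84.

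SLC1A5, or ASCT2, and SLC1A4, or ASCT1, exchange small neutral amino acids with sodium, and SLC1A5 is the chief glutamine carrier of many dividing cells. SLC1A5 RNA was 125, 149, 179.9, 108 and 95.1 FPKM from the control through 2, 4, 6 and 19 h. Density was 85.5, 160.2, 126, 114 and 128 FPKM. RNA peaked at 4 h and ended below the control, whereas density peaked at 2 h and stayed above the control in all 4 treated libraries.

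The called changes of SLC1A5 were RNA at 4 h (0.52 ± 0.02), density at 2 h (0.91 ± 0.03) and TE at 2 h (0.66 ± 0.04) and 19 h (0.98 ± 0.05). At 19 h, density was 1.5-fold the control while RNA was 0.758-fold, and 98.0% of tested genes had a smaller TE change. That call rested on a limit of 0.98 and was not made when all transcripts of both tables were included. With the 2 h library as baseline the change was 0.33 and was not called. SLC1A5 had the second highest RNA level of the 10 in the control, and recovered counts of at least 2852 reads in every library.

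SLC1A4 was expressed at a lower level, with RNA of 9.03, 10.4, 13.6, 6.02 and 4.95 FPKM and density of 5.74, 7.88, 9.26, 4.72 and 4.36 FPKM. The order of the libraries was the same in both assays, highest at 4 h and lowest at 19 h. RNA at 4 h was called at 0.59 ± 0.06, against a limit of 0.55, and was not called when 1 was added to FPKM in place of the floor. The RNA change at 19 h, -0.87 ± 0.08, was within a limit of 2.10, and no density change was called. In density the changes at 6 and 19 h were -0.28 ± 0.13 and -0.40 ± 0.14 for SLC1A4 and 0.42 ± 0.04 and 0.58 ± 0.04 for SLC1A5, all within their limits.

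SLC38A1 and SLC38A2, or SNAT1 and SNAT2, take up glutamine, alanine and other small amino acids with sodium. For SLC38A1, RNA was 16.3, 19.8, 29.7, 14.98 and 13.6 FPKM and density 10.99, 10.8, 13.7, 4.70 and 5.81 FPKM. RNA had its 1 high library at 4 h. Density barely exceeded the control at 4 h and was lowest at 6 h.

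The RNA change of SLC38A1 at 4 h, 0.86 ± 0.06, was called, and that of density was 0.32 ± 0.10. Its density change at 6 h was -1.23 ± 0.15, within a limit of 1.71, on 336 reads in the control and 123 at 6 h. TE was called lower at 6 h, at -1.102 ± 0.17, and 1.91% of tested genes had a lower value. At 4 h its TE change was -0.54 ± 0.12, and 0.912% of tested genes were lower. TE changes of SLC38A1 were negative at all 4 times.

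SLC38A2 had the highest level of the 10 in RNA at every time: 274, 299, 287, 375 and 363 FPKM. Density was 115, 135, 104, 129 and 129.8 FPKM. It had no peak at 4 h in either assay, and RNA was highest at 6 and 19 h, with changes of 0.45 ± 0.01 and 0.40 ± 0.01. None of its changes was called. With 31991 reads in the RNA-Seq control its counting errors were the smallest of the 10.

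SLC6A9, or GLYT1, takes up glycine with sodium and chloride. RNA was 11.02, 10.3, 18.6, 7.58 and 11.1 FPKM and density 8.54, 11.1, 12.4, 14.0 and 13.2 FPKM. RNA had its high library at 4 h and its low one at 6 h, while density was lowest in the control and highest at 6 h. RNA was called at 4 h, at 0.76 ± 0.07. TE was called higher at 6 h, at 1.25 ± 0.15, where RNA was 0.689-fold and density 1.64-fold the control. Density in the control rested on 234 reads, the lowest control count of the 10.

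**Figure D5:**
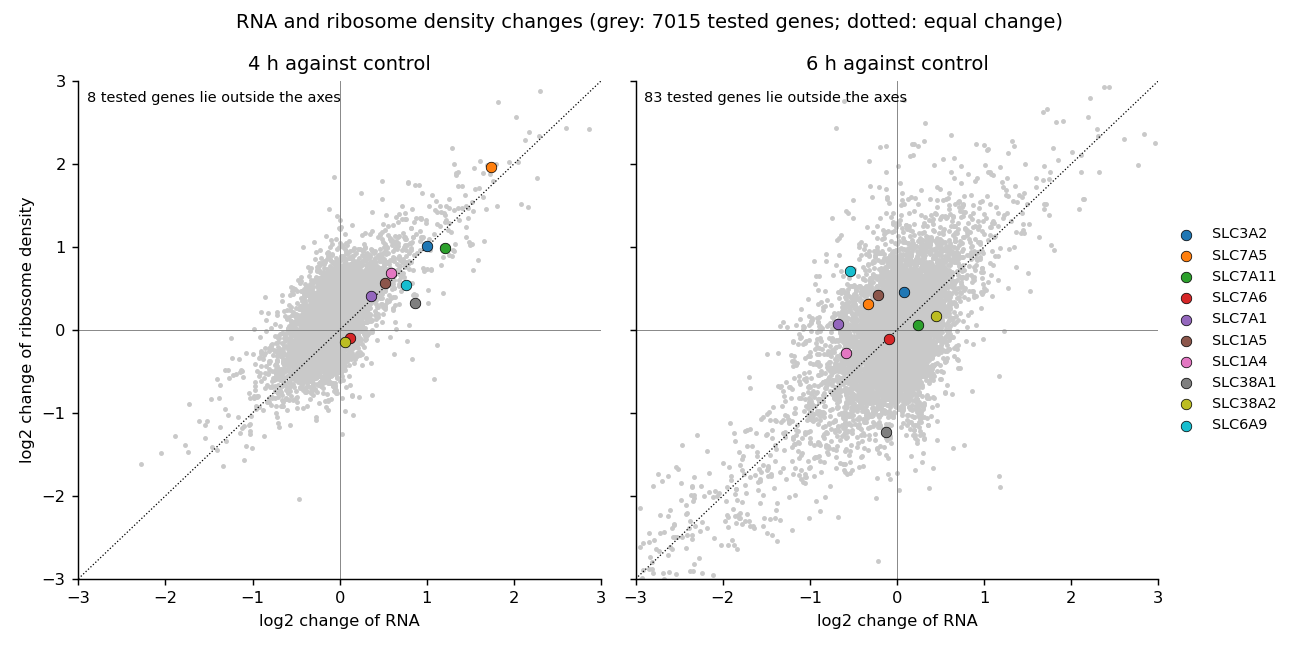
Log2 change of ribosome density against that of RNA at 4 h (left) and 6 h (right), with tested genes in grey, transporters in colour and equal change as a dotted line. At 4 h the transporters string out along the dotted line up to SLC7A5 (1.74 and 1.96), and at 6 h most RNA changes are below 0 while SLC38A1 lies at -1.23 in density.

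Ranked by RNA per length in the control, the order was SLC38A2, SLC1A5, SLC7A1, SLC7A5, SLC3A2, SLC38A1, SLC7A11, SLC6A9, SLC1A4 and SLC7A6, from 274 to 7.46 FPKM. SLC7A5 and SLC3A2 differed by 0.859 counting SEs and SLC38A1 and SLC7A11 by 0.199, and all other neighbours differed by more than 2. At 4 h SLC7A5 had moved up to the level of SLC1A5, 180.4 and 179.9 FPKM. In ribosome density the control order ran from SLC38A2 (115 FPKM) through SLC1A5 (85.5) and SLC3A2 (70.5) to SLC7A6 (3.39). SLC7A11 and SLC1A4, 1.57 counting SEs apart, were the only neighbours in that order closer than 2. At 4 h SLC3A2 led with 142 FPKM, and SLC7A5, 24.0 FPKM in the control, had come to 93.2.

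Other amino acid transporters were read beside these genes. Of 39 listed, 18 were in both tables and 8 were tested. None of the 8 was called in RNA at any time, and their median RNA change was 0.02, 0.04, 0.07 and 0.23 at the 4 times. In density 2 were called higher at 2 h, against 4.92% of all genes, and 1 at 6 h, against 2.57%. None was called lower, against 1.54% and 4.42%. These were SLC6A6, the taurine carrier, at 0.86 ± 0.05 at 2 h, and SLC38A10, at 0.69 ± 0.06 at 2 h and 1.24 ± 0.06 at 6 h, both named after their values were seen. In TE 2, 1, 1 and 1 of the 8 were called higher at 2, 4, 6 and 19 h. The shares of all genes called higher were 5.53%, 12.2%, 3.88% and 2.57%. None of the 8 was called lower, against 1.9%, 0.756%, 3.01% and 5.27%. SLC38A10 was called higher in TE at all 4 times, at 0.70, 0.69, 1.25 and 1.06, and SLC6A6 at 2 h, at 0.82 ± 0.06.

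Enzymes that make or convert amino acids were also called at 4 h. Of 19 tested enzymes of 20 listed, 8 were called higher in RNA at 4 h and none lower, against the 3.66% and 3.36% of all genes given above, with a median change of 0.36. The enzymes called higher numbered 1 at 2 h, none at 6 h and 1 at 19 h, against 3.52%, 1.72% and 1.67%. ASNS, which makes asparagine, was called at 4 h with 1.46 ± 0.06, and PSAT1, of the serine pathway, with 1.304 ± 0.04. MTHFD2, of mitochondrial folate metabolism, was called with 1.05 ± 0.03. ASS1, of arginine synthesis, was the 1 called at 19 h, at 1.18 ± 0.05. In density 4 of the 19 were called higher at 4 h, against 6.46% of all genes, and 2 were called lower at 19 h, against 5.45%. GPT2 is in both 4 h counts, and its density was 2.72 FPKM in the control and 8.54 at 4 h. It passed the filter of 5 FPKM in Ribo-Seq only through that 4 h library, so its calls there are no separate support.

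ATF4 and other regulators of the amino acid response were the last group. Of 14 tested genes of 16 listed, 10, 8, 3 and 2 were called higher in RNA at 2, 4, 6 and 19 h, and none was called lower. The shares of all genes called higher were 3.52%, 3.66%, 1.72% and 1.67%. In density these counts were 6, 12, 3 and 2, against 4.92%, 6.46%, 2.57% and 1.92%. The median density change at 4 h was 1.19, against 0.10 over all genes. In TE 4 of the 14 were called higher at 4 h, against 12.2% of all genes. None was called higher in TE at 2, 6 or 19 h, against 5.53%, 3.88% and 2.57%. RNA changes at 4 h were 3.49 ± 0.13 for DDIT4, an mTORC1 inhibitor and p53 target, and 3.05 ± 0.08 for SESN2, a leucine sensor and p53 target. They were 2.30 ± 0.09 for CHAC1, which degrades glutathione, and 1.47 ± 0.11 for TRIB3, which binds ATF4. In the control, RNA and density were 3.05 and 2.87 FPKM for DDIT4 and 4.53 and 2.905 FPKM for SESN2. Both genes thus passed the filter of 5 FPKM only through treated libraries, where they were high. Their part in the counts is no separate support.

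ATF4 itself had RNA of 150.4, 194, 199, 116 and 142 FPKM and density of 73.4, 97.4, 129, 59.4 and 55.1 FPKM. Its density was thus highest in the 4 h library and below the control at 6 and 19 h. The change at 4 h was 0.40 ± 0.02 in RNA, not called, and 0.81 ± 0.04 in density, called. Its TE change at 4 h, 0.41 ± 0.05, was under a limit of 0.47 and not called, against an all-gene median of 0.18. The transporters, the enzymes and these regulators are compared with the same control library, and no overlap or correlation between them was tested.

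For each transporter the tested genes with the most similar course were sought, by Euclidean distance over the 8 log2 changes of RNA and density. Nearest to SLC7A5 were RELB, a subunit of NF-kappaB (distance 0.765), PHLDA1 (0.914) and TRIB3 (1.02). Nearest to SLC3A2 were ZNF697, IRF2BP2 and EPHA2, at 0.584 to 0.675. For SLC7A11 they were ARHGAP31, GFPT2 and NAV3, at 0.556 to 0.74. SLC7A1 was closest to C9orf167, SMTN and EFHD1, and SLC1A4 to UCK2, HS3ST3A1 and TMEM158.

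SLC1A5 lay closest to FLT1, SLCO4A1 and SLC2A1, the glucose carrier GLUT1, at 0.47 to 0.573. The nearest genes of SLC38A1 were CDK17, BIRC2 and PTPN2, and those of SLC6A9 were CREB3L2, ANKRD11 and MICALL1. No transporter had another of the 10 among its 3 nearest genes. The smallest distance between members was 0.825, for SLC7A1 and SLC1A5, which were only the 49th and 56th nearest to each other. By rank the closest was SLC3A2, the 12th nearest gene to SLC7A5, though at a distance of 1.48. The distances run over 8 values from 10 libraries and describe these libraries only.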

How the data were processed

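Total polyadenylated RNA and ribosome-protected fragments of BJ cells were sequenced by the authors and aligned with Bowtie to Ensembl release 65 protein-coding transcripts, 1 per gene, keeping uniquely mapped reads. The labels name build hg19. The deposited FPKM values were scaled by the authors to transcript length and library total. The methods describe Ribo-Seq levels from coding-sequence reads, but the recovered lengths are those of whole transcripts. Whether reads outside the coding sequence are included could not be decided. Assay was taken from the name of each table.

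FPKM below 1 were raised to 1, log2 ratios to the control were taken, and calls used 1.75 local SDs over 200 neighbours in level. Library totals, lengths and whole reads were recovered from the spacing of FPKM for 99.8% of the 11258 shared transcripts, and the values of the 10 genes lay within 0.12 of a whole read. Recovery and calling were tested on simulated data. Counting errors do not cover PCR copies or cultures.

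The 10 genes, the lists and the motifs were chosen with earlier results of these data known. All 10 genes are named. Of a list, at most 4 genes called in RNA at 4 or 19 h with the largest change are named, and of similar genes the 3 nearest. SLC6A6, SLC38A10, SLC7A8, ATF4 and GPT2 are named outside this rule, after their values were seen. Alternatives were a floor of 5 FPKM, a pseudocount of 1, other filters, a 2 h baseline, median centring, fixed limits of 1.5-fold and 2-fold and removal of a trend over transcript length. Python 3.11.15, NumPy 2.4.6, pandas 2.3.3, SciPy 1.17.1 and matplotlib 3.10.9 were used.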

Additional observations from a re-analysis of the deposited data

Results flagged for a closer look

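For 7 of the transporters the RNA change past its call limit at 1 time was opposite in sign to a change past 2 counting SEs at another. These differences between times were not tested, as each time has 1 library and all share the control. SLC7A5 RNA changed by 0.68 at 2 h and 1.74 at 4 h, but by -0.33 at 6 h. SLC7A1 changed by 0.36 at 4 h and by -0.68 at both 6 and 19 h. SLC1A4 changed by 0.59 at 4 h, and then by -0.58 and -0.87 at 6 and 19 h. The same order held for SLC1A5, at 0.52, -0.21 and -0.40. SLC7A11 was at 1.21 at 4 h, with -0.16 at 2 h and -0.25 at 19 h. SLC38A1 was at 0.86 at 4 h and -0.27 at 19 h, and SLC6A9 at 0.76 at 4 h and -0.54 at 6 h. None of the negative changes was past its call limit.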

How the results depend on the processing

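Of 105 recomputed counts of members called, 78 stayed within 1.5 times. RNA at 4 h, 8 of 9 as reported, kept 6 to 8 under all alternatives but the following. It was 4 of 5 tested at a mean of at least 20 FPKM, against 3.95% of genes higher. With the shares given above, it was 3 with a fixed 2-fold limit and 5 against the 2 h library (SLC7A5, SLC7A11, SLC1A5, SLC38A1 and SLC6A9). With that 2 h baseline, 2 members were called lower in RNA at 6 h and 1 at 19 h, against 5.37% of genes lower at each time. In density 1 was called higher at 4 h, against 4.72%, and 1 lower at 6 h, against 5.39%. In TE 2 were called lower at 4 h, against 2.21%. The density change of SLC3A2 at 4 h turned to -0.22. The 1 call in TE at 19 h, against 1.71% of genes higher, was then SLC7A5 in place of SLC1A5. Summing 3 light chains alone moved 4 of the 10 subunit ratios, those at 6 and 19 h. Centring gave 4 for RNA at 2 h, 1 for TE at 4 h and 2 for TE at 19 h, against the shares given above. The 1.5-fold limit gave 1 for RNA at 6 h and 2 at 19 h, all lower, against 11.6% and 14.6% of all genes. In density it gave 4 at 4 h, all higher against 10.4%, 2 at 6 h (1 higher and 1 lower, against 15% and 19%) and 4 at 19 h (3 and 1, against 15% and 29.8%). In TE it gave 5 at both 6 and 19 h, 4 higher and 1 lower each, against 13.3% and 12.3% at 6 h and 9% and 15.6% at 19 h. The 2-fold limit gave 0 for RNA at 2 h, 1 for density at 2 h, 1 at 6 h, and 0 for TE at 2 and 19 h. The shares of all genes for these are not given here, so the counts are not read further. For TE, the floor of 5 FPKM gave 2 higher at 19 h, against 3.19% of genes. No filter gave 0 at 19 h, against 2.89% higher and 4.81% lower. The mean of 20 FPKM gave 0 at 6 h, against 3.99% and 2.9%. Removal of the length trend gave 2 at 2 h, for which the share is not given here. The cause of these shifts was not tested, beyond the fewer genes or wider limits an alternative itself sets. Filters leave a gene's own change as it is. No paired analysis was possible because every group held 1 library, and no library could be left out for the same reason. Depth limits SLC38A1, SLC6A9, SLC1A4 and SLC7A6 most, whose Ribo-Seq values rest on 117 to 611 reads.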
